A study of Mus musculus with 30 samples.

Results

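The data are the transcriptomes of macrophages that had met a β2 adrenergic agonist before bacterial lipopolysaccharide (LPS), at the time when LPS had acted for 2 h. The comparison takes 7 of the 30 libraries of the series. They are the cultures M2, M3 and M4, given the agonist metaproterenol hemisulfate (MPH, 1 µM), and the cultures D3, D4, D5 and D6, given the vehicle DMSO. All were bone marrow-derived macrophages of wild-type C57Bl/6 mice, grown with culture-derived M-CSF and used 6 days after plating. MPH or DMSO was present for 2 h before LPS, whose dose is labelled as 100 ng/µL. Each culture also gave a library before LPS and at 1 h, and the series holds further DMSO cultures named UKD, r1 and r2. The labels name no MPH partner for any DMSO culture. The libraries were chosen by these labels and not by any measured value. Differences were also taken within the pairs M2 and D3, M3 and D4, and M4 and D5.

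β2 adrenergic receptors couple to the G protein Gs, which turns on adenylyl cyclase. The cAMP that this makes activates protein kinase A, which phosphorylates CREB, a transcription factor that binds the motif TGACGTCA in gene promoters. LPS acts through CD14 and the Toll-like receptor TLR4, which switch on NF-κB, MAP kinases and interferon regulatory factors. In macrophages cAMP is known for changing the balance of cytokines that LPS induces. The series asks how β2 adrenergic signalling alters Il1b, the gene of the cytokine interleukin-1β, and the present comparison asks how all other genes stood at the same time.

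Expression is given in RPKM, reads scaled by the length of the transcript and the depth of the library, as deposited by the authors. By the spacing of low values the MPH libraries held about 14.2, 30.9 and 26.2 M reads (M2, M3, M4; M, mega), and the DMSO libraries about 46.7, 32.2, 79.2 and 18 M (D3, D4, D5, D6). The table holds no value of 0, so a very low value is an upper limit. Macrophage markers summed to between 5230 and 8090 RPKM in the MPH libraries and between 4710 and 7490 RPKM in the DMSO libraries, and 16 of the 17 markers exceeded 1 RPKM. Neutrophil markers summed to between 70.9 and 93.9 RPKM with MPH and between 22.9 and 96.4 RPKM with DMSO, while no B cell, T cell or NK cell marker exceeded 1 RPKM in any of the 7 libraries. The part of other cells in the results was not tested. In bulk RNA, fewer cells of a type and less RNA per cell cannot be told apart.

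Of 10239 genes tested, 49 rose and 40 fell under MPH at an adjusted p under 0.05 (limma on log2(RPKM + 0.5), Benjamini-Hochberg). These are 0.479% and 0.391% of the genes tested, or 0.869% together. Every one of the 49 had all MPH libraries above all DMSO libraries, and every one of the 40 had all below. This fixes the direction of all 3 pairs, so their agreement is a property of the choice and no separate support. Of all genes tested, 25.1% were higher and 32.9% lower in all 3 pairs. The 49 rises had median paired differences of 1.12 (M2 minus D3), 1.52 (M3 minus D4) and 1.12 (M4 minus D5) on the log2 scale, and 32 of them were at least 2-fold. The 40 falls were smaller, with medians of -0.69, -1.05 and -0.88 in the same pairs, and 9 were at least 2-fold. A difference of at least 1 in all 3 pairs was seen for 77 genes upward and 29 downward, 0.752% and 0.283% of those tested. The M3 and D4 pair had the widest median difference in both directions.

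The count depends on how the cultures are matched. The labels do not say which cultures belong together, but each MPH library deviated from its group's mean in step with the DMSO library of its pair, with correlations over genes of 0.88, 0.86 and 0.83 at 2 h. A fit with these pairs as blocks called 527 genes higher and 706 lower, 5.15% and 6.9% of those tested (12% together), and these 1233 genes included all 89. Leaving out the pair of M3 and D4 from that fit left 168, and the other pairs 940 (M2 and D3) and 524 (M4 and D5). Groups that did not overlap were seen for 439 genes higher and 534 lower, 4.29% and 5.22% (9.5% together). Leaving out the 2 h library of M3 left 3 calls, and leaving out that of M4, M2, D4, D5 or D6 left 21, 41, 27, 35 or 40. Without the library of D3 the count was 115. Without the 1 h library of M4, which lends its spread to the fit, it was 215. With the 2 h libraries alone it was 23. With culture as a random effect it was 2, and none of the 27 named genes that passed without it did so, with an adjusted p = 0.0579 for Nav2, 0.165 for Dusp14 and 0.211 for Thbs1 and Crem. Below, an adjusted p is from the fit without blocks unless the blocks are named, and the choice of genes named for a blocked value followed their values. The gene lists were chosen with earlier results of these data known, so a list's counts and median are descriptions and no test.

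**Figure D1:**
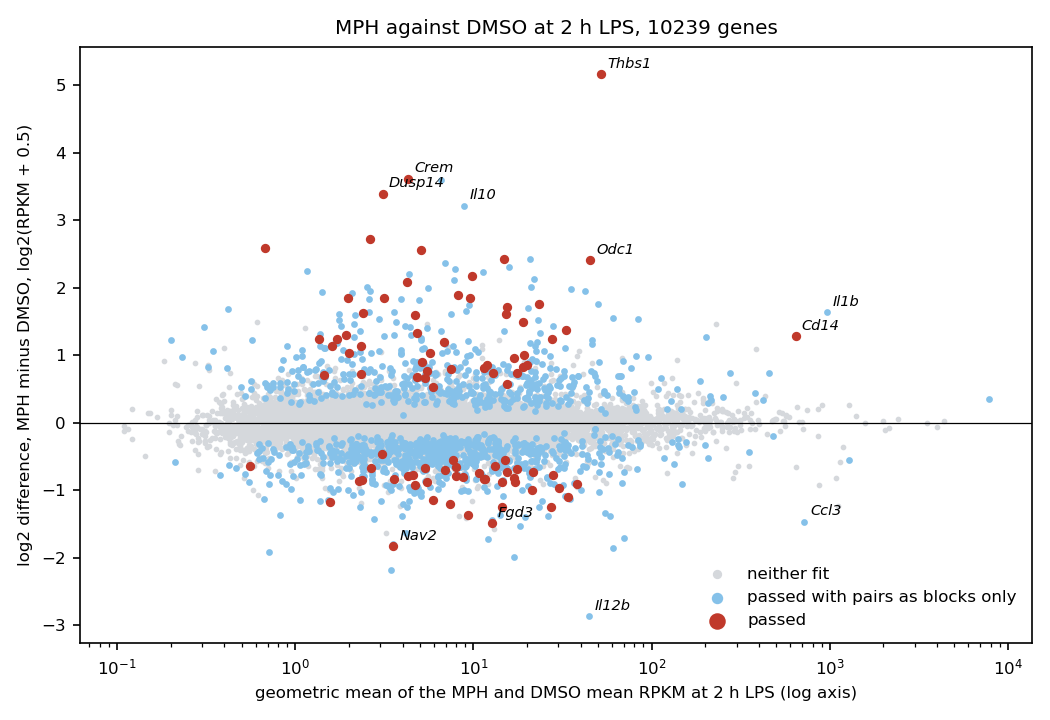
Each point is 1 of 10239 genes, with the geometric mean of the 2 groups' mean RPKM on a log x axis and the log2 difference, MPH minus DMSO, on the y axis. Red points are the 89 genes that passed and blue points those that passed only with the pairs as blocks; the rises reach 5.16 (Thbs1), while no fall that passed without blocks exceeds that of Nav2 (-1.83).

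Il1b, the gene the series is named for, stood at 1386, 1810 and 1794 RPKM in the MPH libraries (M2, M3, M4), against 367, 558, 488 and 803 RPKM in the DMSO libraries (D3 to D6). The lowest MPH library was above the highest DMSO library, and the paired differences were close to each other at 1.92, 1.70 and 1.88 on the log2 scale. Over all genes this difference of 1.63 (SE 0.68) did not pass, with an adjusted p = 0.422, whereas with the pairs as blocks it was 1.92 (SE 0.58, adjusted p = 0.0402). The exact two-sided permutation test gave p = 0.0286, the smallest that 35 arrangements allow. Leaving out any 1 of the 7 libraries kept the difference between 1.45 and 1.83. The pairs alone averaged 1.83 (exact sign-flip p = 0.25, the smallest that 3 pairs allow).

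Of 18 tested genes on a list of cAMP and CREB targets, Crem and Thbs1 rose and none fell, beside 0.479% and 0.391% of all genes. Crem, a CREB family gene that also encodes the repressor ICER, was at 21.4, 23.9 and 10.2 RPKM with MPH, against 0.785, 1.1, 0.697 and 1.36 RPKM with DMSO. Even the lowest MPH library, M4, was several times above every DMSO library, and the log2 difference was 3.61 (SE 0.80, adjusted p = 0.0365). Thbs1, which encodes the matrix glycoprotein thrombospondin-1, was at 402, 379 and 167 RPKM with MPH, against 12.4, 5.12, 4.42 and 12.4 RPKM with DMSO. Its paired differences of 4.97, 6.08 and 5.09 were the widest of all named genes (adjusted p = 0.0365). The list's median log2 difference was 0.73, beside -0.02 over all genes tested.

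With the pairs as blocks, 4 of the 18 were higher and 1 lower, beside 5.15% and 6.9% of all genes tested. Pde4d, a cAMP phosphodiesterase, was at 1.21, 0.51 and 0.368 RPKM with MPH, against 0.292, 0.106, 0.104 and 0.102 RPKM with DMSO (adjusted p = 0.0335 with blocks). Among the 2 h libraries only M2 reached the 1 RPKM of the filter, so its values are a description. Dusp1, a phosphatase that switches off MAP kinases, was at 79.3, 79 and 57.8 RPKM with MPH, against 99.4, 11.1, 19.2 and 8.46 RPKM with DMSO. The groups overlapped through D3 alone, whose pair differed by -0.32 while the other pairs differed by 2.78 and 1.56 (adjusted p = 0.026 with blocks, 0.222 without). The listed gene that was lower is Atf3, a stress-induced repressor, at 29, 25 and 47.8 RPKM with MPH, against 114, 48.6, 118 and 73.1 RPKM with DMSO. All 3 MPH libraries lay below all 4 DMSO libraries (adjusted p = 0.0177 with blocks, 0.289 without).

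The machinery that makes, senses and destroys cAMP gave few calls. Of 28 genes tested, Gng4 rose and none fell, beside 0.479% and 0.391% of all genes tested. Gng4, a G protein gamma subunit, was at 6.62, 8.43 and 8.96 RPKM with MPH, against 1.35, 0.202, 0.841 and 1.03 RPKM with DMSO (log2 difference 2.72, SE 0.56, adjusted p = 0.026). With blocks 5 were higher and 1 lower, beside 5.15% and 6.9% of all genes tested. The phosphodiesterase gene Pde3b was at 8.16, 3.61 and 2.64 RPKM with MPH, against 2.08, 0.487, 0.375 and 0.683 RPKM with DMSO (adjusted p = 0.00564 with blocks). At 2 h only the MPH libraries and D3 reached the 1 RPKM of the filter, so its test is given as a description. Prkar1a and Prkar2b, regulatory subunits that hold protein kinase A inactive until cAMP binds, differed by 0.41 and 0.89 on the log2 scale (adjusted p = 0.00385 and 0.00362 with blocks). Arrb2, which encodes the receptor-silencing β-arrestin 2, was lower by all 3 pairs, at -0.47, -0.75 and -0.97 (adjusted p = 0.00643 with blocks).

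**Figure D2:**
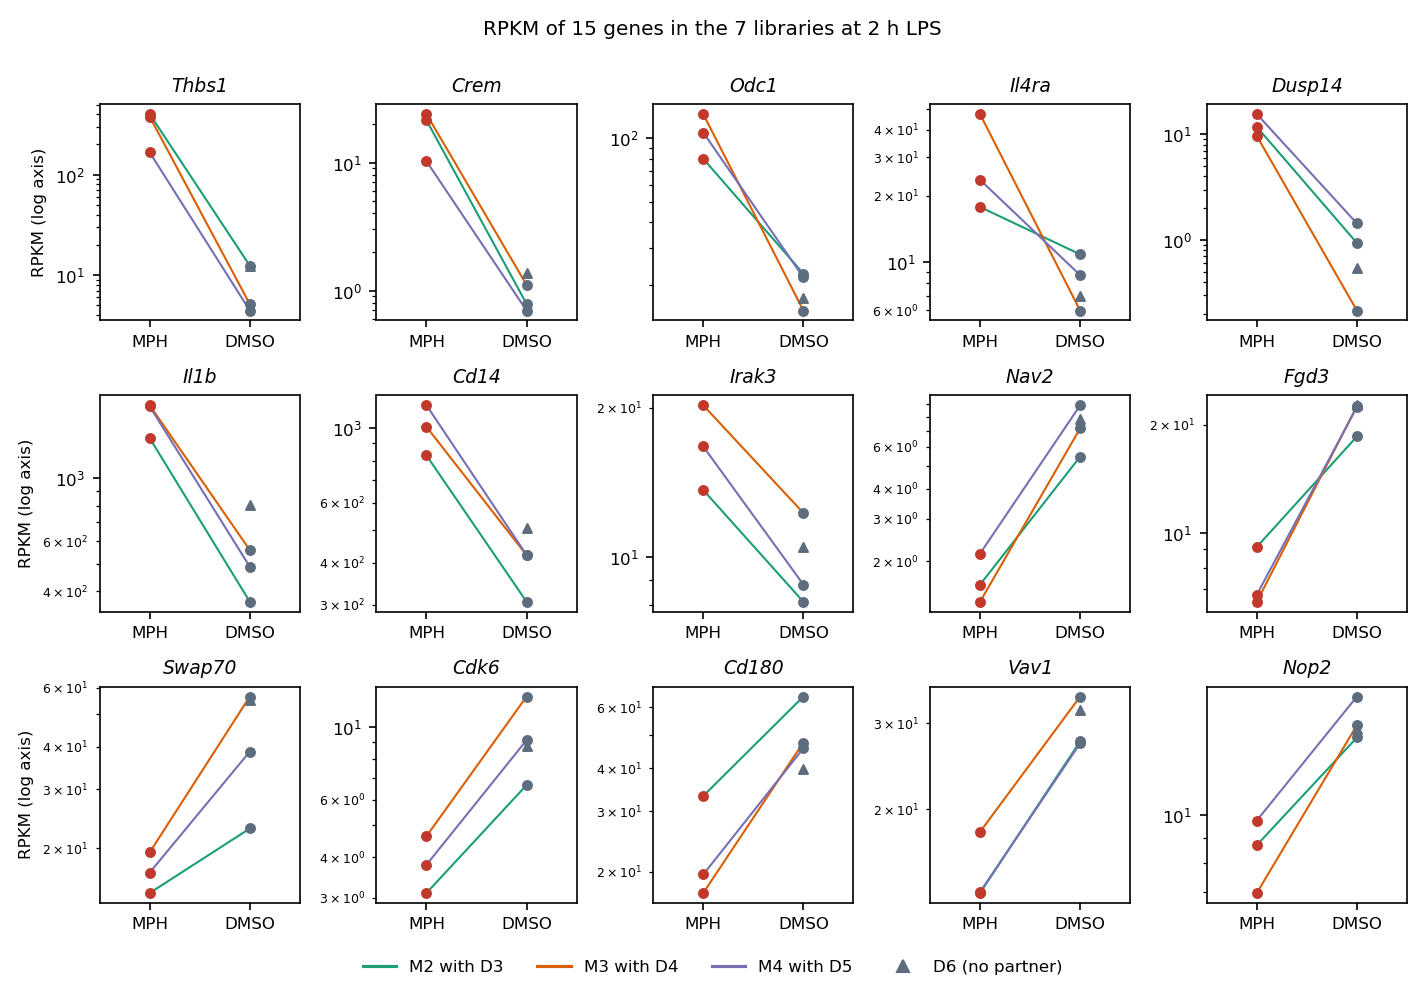
RPKM on log axes of 15 genes in each library at 2 h LPS, with MPH left (red) and DMSO right (grey), and lines joining the pairs. MPH lies above DMSO for Thbs1 through Irak3 and below it for Nav2 through Nop2, with no overlap in any of the 15 panels.

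Promoters were read for the CREB motif TGACGTCA. Of the 49 genes that rose, 36 had a promoter of 300 bases in RefSeq (GRCm38.p6, 250 bases before to 50 after the start), and 0 of these held the full motif on either strand. Of the 40 that fell, 36 had one and 1 held it, and the share was 3.73% among all tested genes with a promoter. The shorter TGACG, which lies within the full motif, was in 27.8% of the promoters of genes that rose, in 38.9% of those of genes that fell and in 37.5% of those of all tested genes. With the pairs as blocks 15 of 436 promoters of higher genes held the full motif (3.44%). Both shares were near those of all genes tested, and a match is a description of letters only. The AP-1 motif TGANTCA was in 5 of 36 promoters of genes that rose (13.9%) and in 4 of 36 of those that fell (11.1%). It was in 6.12% of the promoters of all tested genes and in 8.97% of all promoters read. The counts are small and the shares were not tested. Shown here, with the full motif in capitals, are stretches of 120 bases upstream of the start. They are from the gene that fell (Stk38l) and from 2 genes on the list of MAP kinase inhibitors that were higher with blocks, picked with their values known. Those of Stk38l and Errfi1 end at the base before the start, and that of Dusp1 ends short of it.
Stk38l: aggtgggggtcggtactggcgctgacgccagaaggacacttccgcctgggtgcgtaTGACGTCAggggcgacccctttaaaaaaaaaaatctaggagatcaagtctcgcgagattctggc
Dusp1: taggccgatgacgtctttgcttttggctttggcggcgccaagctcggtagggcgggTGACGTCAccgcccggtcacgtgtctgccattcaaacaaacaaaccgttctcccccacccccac
Errfi1: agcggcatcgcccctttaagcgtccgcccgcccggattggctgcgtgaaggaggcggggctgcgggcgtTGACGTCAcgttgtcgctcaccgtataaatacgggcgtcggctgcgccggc
In GRCm38.p6 these lie at chr6:146724810-146724929 (plus strand), chr17:26508552-26508671 (minus strand) and chr4:150854950-150855069 (plus strand). The first base of the motif lies 64, 143 and 51 bases before the start. Stk38l, a kinase of the NDR family, was at 0.749, 0.924 and 1.02 RPKM with MPH, against 2.23, 3.9, 1.96 and 2.83 RPKM with DMSO (log2 difference -1.18, adjusted p = 0.009). Errfi1, a feedback inhibitor of the EGF receptor family, was at 82.6, 23.8 and 49.1 RPKM with MPH, against 44.6, 8.62, 21.9 and 10.1 RPKM with DMSO. The groups of Errfi1 overlapped, but it was higher in each pair (adjusted p = 0.0161 with blocks, 0.34 without).

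MAP kinases carry both the LPS and the growth factor signal, and their phosphatases close it. Of 16 phosphatases and feedback inhibitors tested, Dusp14 rose and none fell, beside 0.479% and 0.391% of all genes tested. Dusp14 was at 11.8, 9.64 and 15.5 RPKM with MPH, against 0.935, 0.215, 1.43 and 0.538 RPKM with DMSO. The log2 difference was 3.39 (SE 0.53, adjusted p = 0.00842). Its libraries were far apart in all pairs, at 3.09, 3.83 and 3.05. At 2 h only the MPH libraries and D5 reached the 1 RPKM of the filter, so its test is given as a description. Immediate-early and AP-1 genes were not called, 0 of 16 in either direction, beside 0.869% of all genes tested. With blocks Fosl2 and Ier3 were higher and Atf3, given above, was lower, beside 5.15% and 6.9% of all genes tested. Ier3 was at 31.2, 30.1 and 54.4 RPKM with MPH, against 10.5, 6.71, 18.8 and 18.5 RPKM with DMSO (adjusted p = 0.0027 with blocks). Fos, Jun and Egr1 had overlapping groups.

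Of 11 tested genes tied to regulatory and tissue-repair macrophages, 3 rose and none fell, beside 0.479% and 0.391% of all genes tested. The list's median log2 difference was 1.72. The 3 rises are Thbs1, Odc1 and Il4ra. Odc1, the rate-limiting enzyme of polyamine synthesis, was at 79.9, 130 and 106 RPKM with MPH, against 22.8, 15.2, 21.9 and 17.4 RPKM with DMSO (log2 difference 2.41, SE 0.52, adjusted p = 0.0333). Il4ra, the receptor subunit shared by interleukin-4 and interleukin-13, was at 17.8, 47.2 and 23.7 RPKM with MPH, against 10.8, 5.99, 8.69 and 6.95 RPKM with DMSO. Its groups did not overlap, but its paired differences ran widely, at 0.69, 2.88 and 1.40 (adjusted p = 0.00998).

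With the pairs as blocks 6 of the 11 were higher and 1 lower, beside 5.15% and 6.9% of all genes tested. Il10, which encodes a cytokine that restrains inflammation, stood at 22.4, 29.7 and 34.7 RPKM with MPH, against 2.89, 2.25, 2.07 and 3.48 RPKM with DMSO. The gap between the groups was wide and even, with paired differences of 2.76, 3.46 and 3.78, yet the adjusted p was 0.121 without blocks and 0.0143 with them. Il1rn, which encodes the antagonist of the interleukin-1 receptor, was at 45, 117 and 99.8 RPKM with MPH, against 18, 17.4, 22.7 and 24.8 RPKM with DMSO. It fell just outside the threshold, with a log2 difference of 1.95 and an adjusted p = 0.0504, beside Mapkapk3 (0.65, adjusted p = 0.0504). Ets1 and Pnrc1 lay just inside it, at 1.24 and 0.85 (adjusted p = 0.0497 and 0.0498). Vegfa, an angiogenic growth factor, was at 12.9, 6.54 and 9.48 RPKM with MPH, against 4.31, 1.44, 3.28 and 1.19 RPKM with DMSO (adjusted p = 0.0157 with blocks). Pdgfb, another growth factor, went the other way, with paired differences of -1.19, -1.13 and -1.16 (adjusted p = 0.0494 with blocks).

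**Figure D3:**
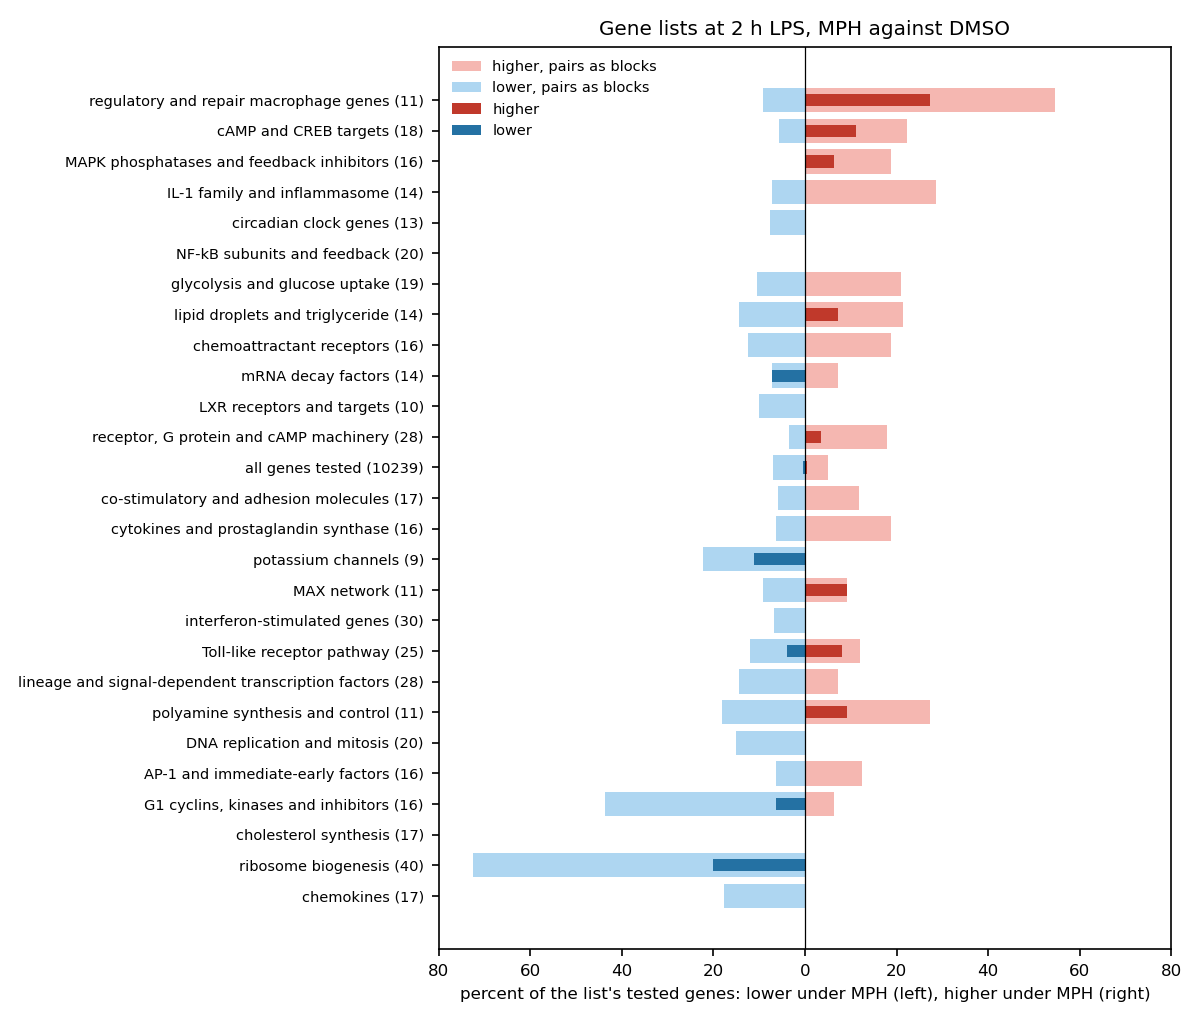
Bars give, for each gene list, the percent of its tested genes (number in brackets) that were higher under MPH (right) or lower (left), dark without blocks and pale with the pairs as blocks; lists are ordered by median log2 difference. Regulatory and repair genes lead on the right with 6 of 11 higher with blocks, beside 5.15% of all genes tested. On the left, ribosome biogenesis genes had 29 of 40 lower, beside 6.9%. That list was written after such genes were seen among the falls, so its bar is a description. The other lists were chosen with earlier results of these data known, so their bars are descriptions as well.

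Within the interleukin-1 family none of 14 genes was called without blocks, beside 0.869% of all genes tested. With them 4 were higher and 1 lower, beside 5.15% and 6.9% of all genes tested. Besides Il1b and Il1rn the higher genes include Il1r2, the decoy receptor, at 3.26, 6.05 and 2.06 RPKM with MPH, against 0.375, 0.651, 0.177 and 0.243 RPKM with DMSO. Its paired differences of 2.10, 2.51 and 1.92 were even (adjusted p = 0.00327 with blocks, 0.0595 without). At 2 h only the MPH libraries reached the 1 RPKM of the filter, so these values are a description. Il1a, the other interleukin-1, was at 419, 257 and 476 RPKM with MPH, against 173, 105, 124 and 146 RPKM with DMSO, but passed in neither fit (adjusted p = 0.43 without blocks). Il1b, its antagonist Il1rn and the decoy Il1r2 were each higher in all 3 pairs. Il1f9, an interleukin-36 gene outside the list, rose to 1.71, 3.79 and 3.56 RPKM with MPH, against 0.742, 0.998, 1.53 and 0.606 RPKM with DMSO (log2 difference 1.24, adjusted p = 0.0365). At 2 h only the MPH libraries and D5 reached the 1 RPKM of the filter, so its test is given as a description.

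The other cytokines were mixed. Of 16 tested, none was called without blocks, beside 0.869% of all genes tested. With them 3 were higher and 1 lower, beside 5.15% and 6.9% of all genes tested. Il23a, a subunit of interleukin-23, was at 15.1, 9.43 and 27.4 RPKM with MPH, against 7.34, 1.05, 6.43 and 6.04 RPKM with DMSO. Il12b, the subunit shared by interleukin-12 and interleukin-23, was at 1.69, 25.6 and 20.3 RPKM with MPH, against 10.9, 152, 79.2 and 255 RPKM with DMSO. The 2 groups of Il12b overlapped, but each pair was lower with MPH, at -2.38, -2.55 and -1.94 (adjusted p = 0.0487 with blocks, 0.263 without). Tnf was at 848, 302 and 1162 RPKM with MPH, against 1553, 1011, 1962 and 1949 RPKM with DMSO, lower in each pair, and passed in neither fit (adjusted p = 0.31 without blocks and 0.073 with them). Il6 was at 65.4, 55.2 and 64.5 RPKM with MPH, against 35.8, 39.4, 18.6 and 46.1 RPKM with DMSO, with no overlap and a blocked adjusted p = 0.4.

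Chemokines had the lowest median of any list, -0.64, although none of the 17 tested was called without blocks, beside 0.869% of all genes. With blocks 3 were lower and none higher, beside 6.9% and 5.15% of all genes tested. Ccl3, which draws monocytes and other leukocytes, was at 214, 353 and 784 RPKM with MPH, against 624, 1098, 1316 and 1498 RPKM with DMSO (adjusted p = 0.0201 with blocks, 0.427 without). The MPH library of M4 was above the DMSO library of D3, but each pair was lower, at -1.54, -1.63 and -0.75. Ccl12, a monocyte attractant, differed by -1.59, -1.68 and -1.21 in the pairs (adjusted p = 0.00376 with blocks). Among 16 chemoattractant receptors, also without a call, Ccr1 was at 26.9, 9.01 and 10.5 RPKM with MPH, against 8.22, 1.74, 1.63 and 0.921 RPKM with DMSO (adjusted p = 0.00257 with blocks). Cx3cr1, the fractalkine receptor, was at 2.33, 2.01 and 0.873 RPKM with MPH, against 8.63, 9.44, 5.11 and 5.44 RPKM with DMSO. No MPH library reached a DMSO library there (adjusted p = 0.00197 with blocks, 0.0764 without). The complement receptor gene C3ar1 was also lower in every pair, at -1.12, -1.35 and -1.17 (adjusted p = 0.00252 with blocks).

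At the LPS receptor, Cd14 and Irak3 rose and Cd180 fell, out of 25 Toll-like receptor pathway genes. Of all genes tested, 0.479% rose and 0.391% fell. Cd14, the co-receptor that hands LPS to TLR4, was at 828, 1006 and 1164 RPKM with MPH, against 306, 420, 421 and 506 RPKM with DMSO (log2 difference 1.28, SE 0.26, adjusted p = 0.0257). Irak3, a kinase homologue that damps Toll-like receptor signals, was at 13.7, 20.2 and 16.7 RPKM with MPH, against 8.12, 12.3, 8.8 and 10.5 RPKM with DMSO (log2 difference 0.74, adjusted p = 0.0257). Cd180, a TLR4-like surface protein that lacks the signalling domain, was at 33.2, 17.4 and 19.6 RPKM with MPH, against 64.5, 47.4, 45.6 and 39.8 RPKM with DMSO (log2 difference -1.09, adjusted p = 0.0365). The groups of all 3 genes were apart. Tlr4 itself was at 4.36, 8.36 and 4.94 RPKM with MPH, against 3.45, 3.71, 2.01 and 2.5 RPKM with DMSO (adjusted p = 0.00246 with blocks, 0.338 without).

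Downstream of the receptor, the NF-κB list gave no call among 20 genes with or without blocks, and its groups did not separate for any member. Over all genes tested, 0.869% were called without blocks, 12% with blocks, and 9.5% had groups that did not overlap. Whether 0 of 20 differs from these shares was not tested. Nfkbia, the inhibitor that NF-κB itself induces, was at 415, 429 and 616 RPKM with MPH, against 448, 386, 564 and 484 RPKM with DMSO. Of 30 interferon-stimulated genes none was called without blocks. With blocks 2 of the 30, Irf1 and Irf8, were lower, which is near the 6.9% of all genes tested. Irf8, a lineage factor of macrophages, was at 1.76, 3.29 and 2.52 RPKM with MPH, against 5.33, 8.54, 6.09 and 5.6 RPKM with DMSO (adjusted p = 0.00316 with blocks, 0.151 without). Irf1 had paired differences of -1.36, -1.10 and -0.89, though its groups overlapped (adjusted p = 0.00891 with blocks). Zc3h12c, a regnase family gene whose relatives cut inflammatory mRNAs, fell to 11.4, 7.9 and 8.24 RPKM with MPH, against 29.8, 21, 16.8 and 23.6 RPKM with DMSO (log2 difference -1.25, adjusted p = 0.0251).

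Fgd3, Swap70 and Vav1 were among the named falls and Rnd1 among the named rises. Fgd3, an exchange factor for Cdc42, was at 9.14, 6.43 and 6.73 RPKM with MPH, against 18.6, 22.6, 22.4 and 22.7 RPKM with DMSO (log2 difference -1.49, SE 0.25, adjusted p = 0.00842). Swap70, which binds actin and activates Rac, was at 14.7, 19.5 and 16.9 RPKM with MPH, against 22.9, 56.5, 38.8 and 55 RPKM with DMSO (adjusted p = 0.0342). Vav1, the exchange factor of blood cells, was at 13.5, 18 and 13.5 RPKM with MPH, against 27.5, 34, 27.3 and 31.9 RPKM with DMSO, and its 3 paired differences lay close to the fitted one of -0.99 (SE 0.21, adjusted p = 0.0297). Rnd1, a small GTPase of the actin cytoskeleton, rose to 13, 70.9 and 33.4 RPKM with MPH, against 4.36, 5.36, 4.63 and 8.19 RPKM with DMSO (log2 difference 2.42, adjusted p = 0.00842).

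The further genes Ptk2b, Elmo1, Asap1 and Arhgap26 were picked with their values known, so they show no theme. Ptk2b, the focal adhesion kinase relative of blood cells, was at 28.1, 17.5 and 18.5 RPKM with MPH, against 44.5, 31.6, 35.4 and 33.7 RPKM with DMSO (adjusted p = 0.0342). Elmo1, a partner of DOCK proteins, had a log2 difference of -0.55 (adjusted p = 0.0319), and Asap1, an Arf GTPase-activating protein, one of -0.74 (adjusted p = 0.0257). Arhgap26 and Arhgap31, GTPase-activating proteins, rose by 1.13 and 0.73 (adjusted p = 0.0205 and 0.0342).

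**Figure D4:**
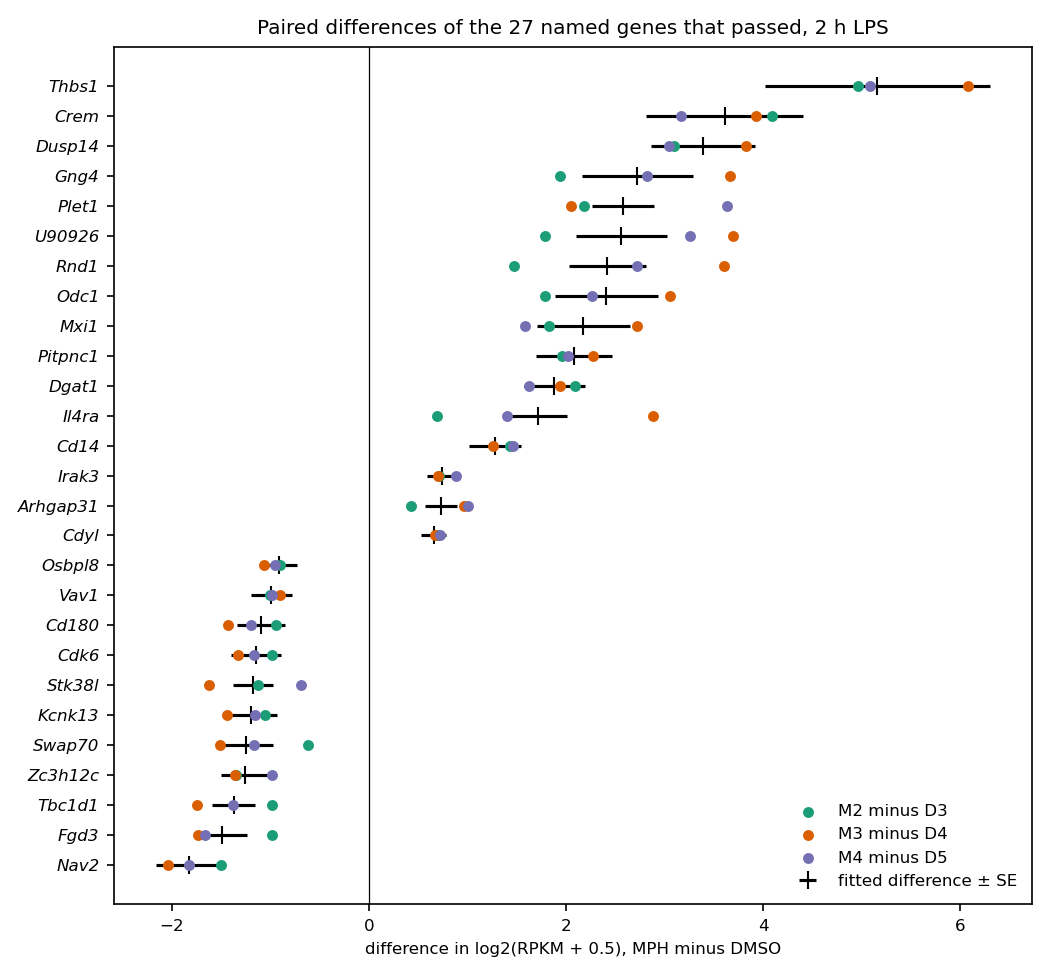
Differences in log2(RPKM + 0.5) of the pairs M2 minus D3, M3 minus D4 and M4 minus D5 (points), with the fitted difference of MPH and DMSO and its SE (black), for the 27 named genes that passed. All 3 points lie on 1 side of 0 for every gene, which follows from groups that do not overlap. The pairs spread most for Il4ra, from 0.69 to 2.88, and least for Cdyl, from 0.67 to 0.72.

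Other falls of the largest size were in genes of varied function. Nav2, a cytoskeleton-associated protein named as a neuron navigator, had the largest fall, to 1.6, 1.36 and 2.15 RPKM with MPH, against 5.45, 7.15, 8.92 and 7.84 RPKM with DMSO (log2 difference -1.83, SE 0.34, adjusted p = 0.0146). Tbc1d1, a Rab GTPase-activating protein of glucose transporter traffic, was at 5.6, 5.16 and 6.08 RPKM with MPH, against 11.6, 18.5, 16.7 and 15.2 RPKM with DMSO (log2 difference -1.37, adjusted p = 0.00842). In both genes the lowest DMSO library lay well above the highest MPH library. Kcnk13, a potassium channel of microglia and macrophages, was at 5.63, 3.02 and 5.74 RPKM with MPH, against 12.2, 9.04, 13.4 and 10.8 RPKM with DMSO (adjusted p = 0.0394). It was the 1 fall among 9 potassium channel genes, beside 0.391% of all genes tested. Osbpl8, a lipid transfer protein of the endoplasmic reticulum, had even paired differences of -0.91, -1.07 and -0.95 (adjusted p = 0.0205).

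A list of 40 genes of the nucleolus and of pre-rRNA processing was written out after such genes were seen among the 40 falls, and was not tested for that reason. Of the listed genes, 8 fell and none rose, beside 0.391% of all genes tested that fell. With blocks 29 were lower, beside 6.9% of all genes, and 36 were lower in all 3 pairs, beside 32.9%. The list's median log2 difference was -0.41, beside -0.02 over all genes. As the list was written from the falls seen, a gap from all genes is in part a property of the choice. Nop2, a 28S rRNA methyltransferase, was at 8.69, 6.96 and 9.75 RPKM with MPH, against 14.3, 15.2, 17.4 and 14.9 RPKM with DMSO (log2 difference -0.84, SE 0.17, adjusted p = 0.0257). Nop58, a core protein of box C/D snoRNPs, was at 16.9, 16.3 and 16.9 RPKM with MPH, against 26.3, 31.4, 27.5 and 27.5 RPKM with DMSO (adjusted p = 0.0333). In both genes the groups were tight and apart. Nop56, Nolc1, Gnl3, Tsr1, Rrp15 and Utp18 fell as well, with log2 differences between -0.82 (Gnl3) and -0.55 (Utp18). RNA polymerase I subunit Polr1b was lower only with blocks (-0.62, adjusted p = 0.00116), while Polr3e, of RNA polymerase III, fell without them (-0.47, adjusted p = 0.0497). Srm, which makes spermidine from the product of Odc1, was lower with blocks at paired differences of -0.59, -0.79 and -0.59 (adjusted p = 0.00183).

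Among cell cycle genes, Cdk6, a G1 kinase that works with D cyclins, fell to 3.1, 4.63 and 3.79 RPKM with MPH, against 6.65, 12.4, 9.13 and 8.77 RPKM with DMSO (log2 difference -1.15, adjusted p = 0.0365). It was the 1 call among 16 G1 genes, beside 0.869% of all genes tested. With blocks 7 of the 16 were lower and 1 higher, beside 6.9% and 5.15% of all genes tested. Ccnd1, cyclin D1, was at 3.12, 15.2 and 5.84 RPKM with MPH, against 12, 31.8, 19.5 and 17.1 RPKM with DMSO, lower in each pair, at -1.79, -1.04 and -1.66, though the groups overlapped (adjusted p = 0.000685 with blocks, 0.533 without). The higher gene is Cdkn1b, the cyclin-dependent kinase inhibitor p27, at 6.91, 18.6 and 10.5 RPKM with MPH, against 3.17, 6.68, 4.17 and 5.82 RPKM with DMSO (adjusted p = 0.00686 with blocks, 0.097 without). Of 20 DNA replication and mitosis genes none was called, and 15 were lower in all 3 pairs, beside 32.9% of all genes tested. Mxi1, a MAX partner that opposes MYC, rose to 26.9, 26.1 and 12.4 RPKM with MPH, against 7.23, 3.54, 3.82 and 3.03 RPKM with DMSO (log2 difference 2.18, adjusted p = 0.0342).

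Calls among metabolic genes were few. Dgat1, the enzyme of the last step of triglyceride synthesis, was at 21.5, 14.7 and 13.7 RPKM with MPH, against 4.66, 3.48, 4.1 and 4.07 RPKM with DMSO (log2 difference 1.88, SE 0.31, adjusted p = 0.00842). It was the 1 call among 14 lipid droplet genes, beside 0.869% of all genes tested. Hilpda, which blocks triglyceride breakdown, and Abhd5, which promotes it, went opposite ways with blocks, by 2.24 and -0.81 (adjusted p = 0.0226 and 0.000872). No gene of glucose use was called without blocks, of 19. With blocks 4 were higher and 2 lower, beside 5.15% and 6.9% of all genes tested. The higher ones were Hk2 (0.69), Slc16a3 (1.16), Slc2a1 (0.50) and Ldha (0.30). Slc16a3, the lactate exporter, was at 52.4, 66.1 and 90.3 RPKM with MPH, against 24.1, 22, 50.7 and 25 RPKM with DMSO. Cholesterol synthesis gave no call among 17 genes without or with blocks, beside 0.869% and 12% of all genes tested. Of the 17, 12 were lower in all 3 pairs, beside 32.9% of all genes tested. Uck2 and Upp1, enzymes of pyrimidine salvage and breakdown, rose by 1.49 and 1.85 (adjusted p = 0.0205 and 0.00842); they lie outside the rule for named genes.

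The remaining lists held few calls. No gene of the lists of LXR targets (10 tested), circadian clock genes (13), co-stimulatory and adhesion molecules (17) and lineage or signal-dependent transcription factors (28) was called without blocks. The share over all genes tested was 0.869%. Among those that passed with blocks, Cd86, a co-stimulatory ligand of T cells, was higher, at 8.92, 9.27 and 6.14 RPKM with MPH, against 4.64, 2.64, 2.4 and 2.88 RPKM with DMSO (adjusted p = 0.0133). Irf5, a factor that drives inflammatory genes, was lower, at 31, 32.8 and 34.4 RPKM with MPH, against 40.6, 61.4, 53.6 and 51.6 RPKM with DMSO (adjusted p = 0.000533). Neither gene's groups overlapped. The transcription factor Stat3, which carries the interleukin-10 signal, rose by 0.83 (adjusted p = 0.0302) and was chosen after its values were seen.

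Few of the 89 genes are strong LPS genes, as is true of all genes tested, and the shares below rest on 5 and 2 genes. In the separate DMSO cultures UKD, r1 and r2, 5 of the 49 rises (10.2%) and 2 of the 40 falls (5%) were at least 2-fold higher after 2 h of LPS in all 3, beside 3.83% of all genes tested. None of the 89 was at least 2-fold lower in all 3, beside 1.88%. Cd14 was higher by 3.5, 3.4 and 3.0 on the log2 scale after LPS in these cultures, and Il1b by 9.7, 10.0 and 8.7. Zc3h12c, which fell under MPH, was higher after LPS by 3.3, 3.5 and 4.0.

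The effect of MPH at 2 h of LPS was set beside that in the same cultures before LPS, where MPH had acted alone, and the difference of the 2 effects was tested. It passed for 11 genes, 2 higher and 9 lower at 2 h, which are 0.0195% and 0.0879% of those tested (0.107% together). With the pairs as blocks it passed for 83 higher and 64 lower (0.811% and 0.625%, or 1.44% together). No gene passed without culture M3. Plet1, a surface protein, was at 2.52, 1.65 and 7.26 RPKM with MPH at 2 h, against 0.162, 0.0168, 0.123 and 0.18 RPKM with DMSO. Before LPS it did not exceed 0.0338 RPKM with MPH or 0.0291 RPKM with DMSO, and values this low are upper limits. Plet1 is 1 of the 2 counted as higher, but it passed the filter on low values only through the 3 MPH libraries of 2 h, so its values are a description and its test supports nothing.

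Cdyl, a chromatin corepressor, was at 6.75, 6.83 and 6.87 RPKM with MPH at 2 h, against 3.97, 4.12, 3.97 and 4.5 RPKM with DMSO. Before LPS it was at 2.42, 3.37 and 2.85 RPKM with MPH, against 3.2, 3.84, 3.68 and 4.17 RPKM with DMSO. MPH libraries were above all DMSO libraries at 2 h and mostly below them before LPS, and the effects differed by 0.98 (adjusted p = 0.0358). U90926 and Rnd1 had effects of 2.56 and 2.42 at 2 h and of 0.02 and 0.35 before LPS, but these differences did not pass (adjusted p = 0.26 and 0.34). With the pairs as blocks they did (adjusted p = 0.0223 and 0.0227).

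The 9 genes whose effect was lower at 2 h include genes known to answer cAMP early. Sik1, a kinase that restrains CREB coactivators, was at 0.576, 0.15 and 0.421 RPKM with MPH at 2 h, against 0.441, 0.542, 0.625 and 0.614 RPKM with DMSO. Before LPS it was at 10.8, 7.77 and 10.6 RPKM with MPH, against 1.36, 0.912, 2.22 and 2.1 RPKM with DMSO. The groups were far apart before LPS and overlapped at 2 h, at lower levels in both, and the effects differed by -2.57 (SE 0.37, adjusted p = 0.00624). Pde4b, a cAMP phosphodiesterase, was at 53.4, 50.7 and 42.9 RPKM with MPH at 2 h, against 43.5, 43.9, 36.5 and 35.2 RPKM with DMSO. Before LPS it was at 12.8, 15.2 and 5.95 RPKM with MPH, against 0.808, 1.93, 0.585 and 0.741 RPKM with DMSO. Unlike Sik1 it stood higher at 2 h than before LPS in both groups, while the effect was lower by 2.64 (adjusted p = 0.0251).

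Cdkn1a, the cyclin-dependent kinase inhibitor p21, was at 156, 171 and 185 RPKM with MPH at 2 h, against 160, 317, 268 and 267 RPKM with DMSO. Before LPS it was at 147, 179 and 155 RPKM with MPH, against 73.2, 86.3, 84 and 79.7 RPKM with DMSO. The MPH libraries had like levels at both times, and the DMSO libraries were higher at 2 h (difference of effects -1.51, adjusted p = 0.0216). For Nuak2 and Zcchc14 the effects differed by -1.87 and -1.5 (adjusted p = 0.00624 and 0.00175), and both had overlapping groups at 2 h. Zfp36 and Btg2, both of mRNA decay, and Grasp and Hs6st1 complete the 9, and were named here after their values were seen. Before LPS, Zcchc14 was at 2.58, 3.19 and 2.66 RPKM and Grasp at 2.28, 1.76 and 1.85 RPKM with MPH. With DMSO they did not exceed 0.788 and 0.377 RPKM there, and at 2 h no library exceeded 0.359 and 0.314 RPKM. Of these libraries only those with MPH before LPS reached the 1 RPKM of the filter. Like those of Plet1, their values are a description and their tests support nothing.

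**Figure D5:**
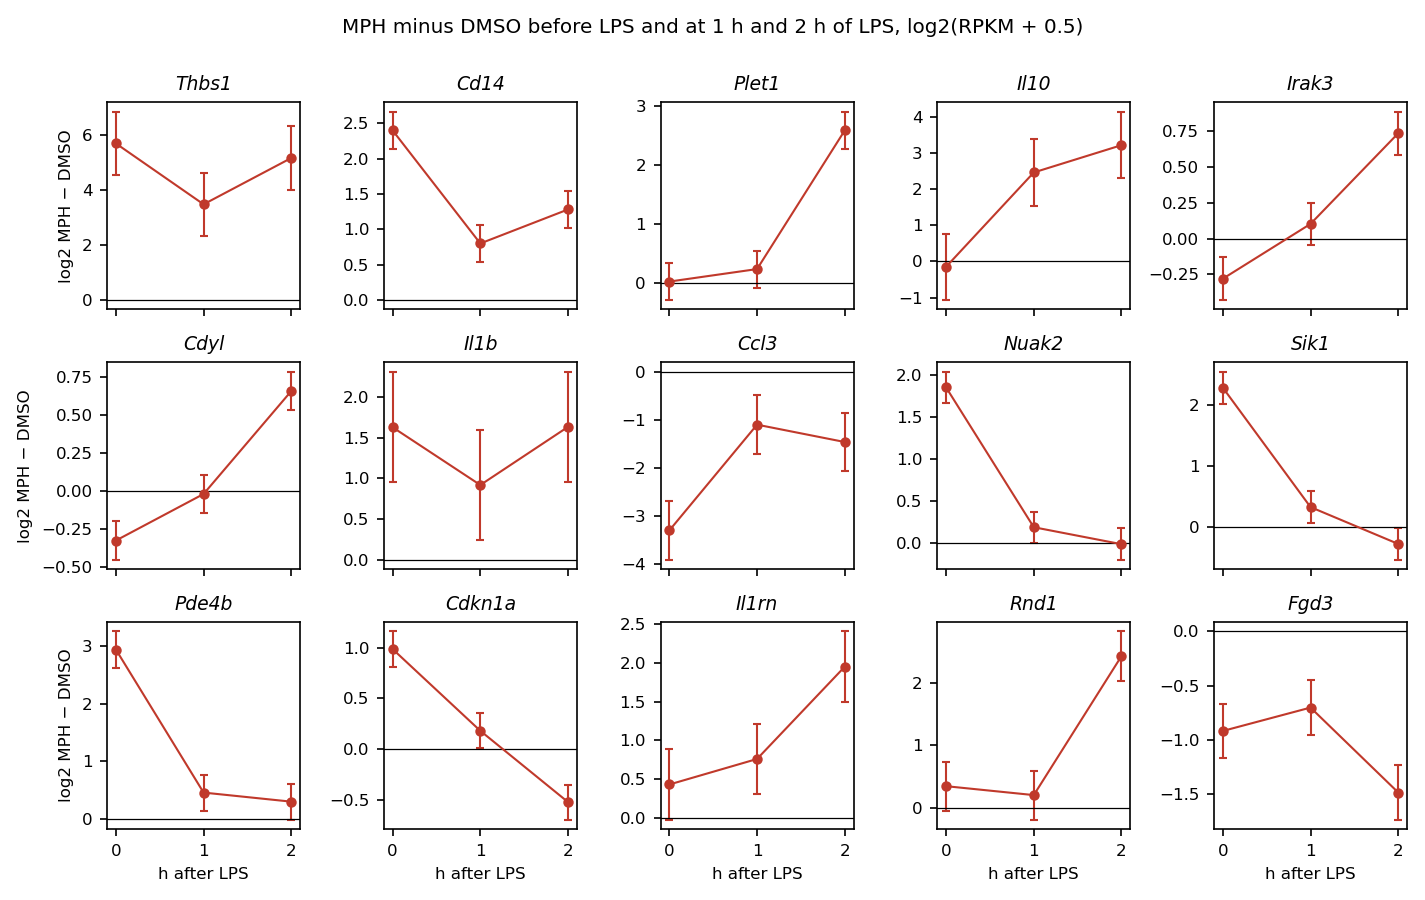
Fitted differences of MPH and DMSO in log2(RPKM + 0.5), with their SE, before LPS and at 1 h and 2 h of LPS for 15 genes; y axes differ between panels. Rnd1 lies at 0.35 before LPS and at 2.42 at 2 h, whereas Sik1 and Nuak2 start at 2.29 and 1.85 and lie at -0.29 and -0.01 at 2 h.

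Between 2 h and 1 h of LPS the effect differed for 0 genes in limma (99 at an unadjusted p under 0.05) and for 1 with the pairs as blocks. Plet1 apart, the named genes closest to the threshold were Arhgap31, Rnd1, Cdyl and U90926, with differences of effects of 0.91, 2.21, 0.68 and 2.34 (adjusted p = 0.9999 for each). Over the 49 rises, the median effect was 0.47 before LPS, 0.54 at 1 h and 1.24 at 2 h. It was -0.31, -0.33 and -0.83 over the 40 falls. These genes were chosen at 2 h, so a wider value there is a property of the choice. The 1 h values include the 1 h library of M4, which widened the spread of some genes. Without it the SE of the 2 h difference went from 1.14 to 0.60 for Thbs1 and from 0.80 to 0.38 for Crem. For Stk38l it stayed at 0.20. The count for 2 h minus 1 h stayed at 0 without that library. What sets the library apart was not tested. Of the 49, 7 were also called higher before LPS, among them Thbs1 and Crem, and none of the 40 was called there.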

How the data were processed

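RNA was sequenced from macrophage cultures; per the submitters' processing notes the tools were FastQC, cutadapt, HISAT2 and SAMtools (no versions stated) and the build was mm9. How reads were counted is not given in the sources used here, strand included, so reads of antisense genes and of close copies cannot be told apart. The authors deposited RPKM per RefSeq transcript (44401 lines, 24761 symbols, no value of 0). The line with the highest mean was kept per symbol, and log2(RPKM + 0.5) was fitted by limma-trend (limma 3.58.1, R 4.3.3) over 21 libraries (cultures D3, D4, D5, D6, M2, M3 and M4 at 0, 1 and 2 h), with 1 mean per treatment and time. Genes needed 1 RPKM in 3 libraries. P-values were adjusted by Benjamini-Hochberg at 0.05. Fold changes of low genes are understated on this scale. The scripts were tested on simulated data.

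Depth was estimated from steps between low values, with transcript lengths from another build. Labels state no pairing and no separate animals. The fit without blocks treated a culture's libraries at different times as independent. Its p-values rest on the spread within treatment and time, pooled over the times. With the pairs as blocks, the spread between pairs was removed. The p-values of these fits therefore do not measure the spread between independent cultures. The fit with culture as a random effect allowed for the repeated libraries of a culture. Blocks use the pairs M2 with D3, M3 with D4 and M4 with D5, D6 standing alone. Correlations of deviations at 2 h were 0.88, 0.86 and 0.83 in the pairs, and -0.61 and -0.49 for M3 with D3 and M4 with D4, which share a number. The members and lists were chosen with earlier results of these data known. The rule for named genes took Il1b, the 10 largest rises and falls with groups apart, up to 4 called members of each list, the 8 rises and falls with the largest smallest paired difference, and the 5 smallest p of each difference between times. The 6 h time of the design was not used here. Alternatives covered the pseudocount (0.1, 1), the filter (none, 3 RPKM), summed lines, scaling, blocks, other library sets and each library or culture left out. Promoter sequences are from RefSeq on GRCm38.p6. Some genes and lists are not reported here.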

Additional observations from a re-analysis of the deposited data

Results flagged for a closer look

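Among the DMSO libraries Fgd3 was at 18.6 RPKM in D3, apart from the others at 22.4 to 22.7 RPKM; about 1 in 20 such groups would be flagged by chance. The effect of MPH differed between 2 h of LPS and the time before LPS for Plet1 by 2.56, Zcchc14 by -1.5, Nuak2 by -1.87, Sik1 by -2.57, Cdkn1a by -1.51, Pde4b by -2.64 and Cdyl by 0.98 on the log2 scale, each past the threshold of limma's test of the difference. Plet1 passed the filter on low values only through the MPH libraries of 2 h, so its value is a description. For Zcchc14, among the libraries before LPS and at 2 h, only those with MPH before LPS reached 1 RPKM. Its value is a description too. All 3 pairs of Irak3 were higher at 2 h (fitted difference 0.74) and lower before LPS, the least of these lower differences being -0.23. All 3 pairs of Cdkn1a were lower at 2 h (fitted difference -0.53), but M2 minus D3 was only -0.03 and the groups overlapped. At 1 h all 3 pairs were higher, the least being 0.09. The difference between 2 h and the time before LPS for Irak3 was 1.02, which did not pass in limma (adjusted p = 0.10) and passed with the pairs as blocks (adjusted p = 0.0122). The difference between 2 h and 1 h for Cdkn1a was -0.70 and did not pass (limma, adjusted p = 0.9999).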

How the results depend on the processing

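The count of 89 moved to 803 with a replicate block by the number in the culture name, 1233 with the pairs as a replicate block, 2 with culture as a random effect, 23 with the 2 h libraries alone, 2157 with the 2 h libraries of the pairs alone and blocked, 335 with all 7 DMSO cultures and 215 without the 1 h library of M4. Chosen after seeing the data, the blocked fit without that 1 h library called 1590, and the blocked fits leaving out the pair M2 and D3, M3 and D4 or M4 and D5 called 940, 168 and 524. Leaving out 1 of the 7 libraries of 2 h, or 1 of the 7 cultures, gave between 1 and 132 calls; without culture M3 it was 1, without D4 or D5 it was 2. The count of 11 for 2 h minus 0 h became 35 with the block by number, 147 with the block by pairs, 176 with the random effect and between 0 and 6 with a culture left out, 0 without M3. The count of 0 for 2 h minus 1 h became 2 with no filter, 1 with the block by pairs and 2 with the random effect. Il1b kept its direction in every setting run, between 1.45 and 1.83 with a library left out (where the smallest possible p exceeds the threshold) and at 1.83 with the replicate block (exact sign-flip p = 0.25). For the 36 named results, 668 values kept their side of the threshold, 288 lost it, 4 gained it and 0 reversed. No named gene kept its call with each of the 7 libraries left out in turn; Dusp14, Rnd1, Dgat1, Il4ra, Stk38l and Tbc1d1 kept it in 6 of 7, losing it without M3. Filters, pseudocounts, summed lines and scaling kept the count between 78 and 109. The cause of these shifts was not tested. The shallowest libraries (M2, 14.2 M reads, and D6, 18 M) limit low genes: 1 read in a 2 kb transcript is 0.0352 RPKM in M2.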
